A study of Macaca mulatta with 28 samples.

Results

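The genes described are 36 members of a list of endothelial, mural (pericyte and smooth muscle) and basement membrane genes, given by name. Of these, 35 had an entry in a table of 16885 named genes, and ABCB1 is not analysed here. The list holds 24 endothelial members, 9 mural members and 3 members of the basement membrane. Among the listed members, 32 passed the count filter of at least 5 counts in at least 3 animals, as did 13769 genes in all.

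RNA was measured in bulk tissue punches of the VTA (ventral tegmental area), where the dopamine neurons that project to the ventral striatum lie, from 28 adult male rhesus macaques (Macaca mulatta), with 1 library per animal. The 17 drinkers had been induced to drink ethanol by scheduled food delivery and then had open access to ethanol and water for 22 h each day over 12 months, followed by cycles of abstinence and renewed access, and tissue was taken as the last of 3 abstinence periods of about 30 days closed. GEO labels sort the drinkers by intake into Low (1 animal), Binge (2 animals), Heavy (5 animals) and Very Heavy (9 animals). The 11 controls had no ethanol and were either given maltodextrin matched in calories to a drinker or only housed alike, and the labels do not tell these apart or give the age of an animal. Cohort 1 held 8 controls, the Low animal, 4 Heavy and 3 Very Heavy drinkers, and cohort 2 held 3 controls, both Binge drinkers, 1 Heavy and 6 Very Heavy drinkers. The cohort of the drinkers came from the study's Source Data, and the 3 controls of cohort 2 are those left once the controls of cohort 1 listed there were taken out. Animals were perfused before dissection, and of 8 blood genes looked for, 5 had an entry and 1, HBA, passed the count filter, at 0.157 to 11.8 CPM (counts scaled to the same library size in each animal, with normalization factors).

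Brain capillaries are lined by endothelial cells joined by tight junctions, which form the blood-brain barrier together with selective transporters. Pericytes sit on the outside of capillaries within a shared basement membrane, and smooth muscle cells wrap arterioles. VEGF and angiopoietin receptors on endothelial cells control vessel growth and stability, and ETS and SOX transcription factors keep endothelial identity. Vascular cells are a small part of brain tissue, so their transcripts in a bulk punch are read against a background of glial and neuronal RNA, and in bulk RNA fewer cells of a type and less RNA per cell cannot be told apart.

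Total counts were 12303915 to 27338673 per animal, and transcripts of the mitochondrial genome took 36.4% to 60.6% of them. Each gene is represented by 1 Ensembl transcript, so counts assigned to other transcripts of the same gene are not in its value. The number of tested genes listed at 0 differed between animals. It was 1537 to 2206 in cohort 1 controls, 2054 to 3296 in cohort 1 drinkers, and 1393 to 2009 in cohort 2. The library of the Low drinker stood apart, with 3296 tested genes at 0 and 9 of the 32 tested members at 0. The comparisons were repeated without it. Markers of dopamine neurons (TH, SLC6A3, SLC18A2, DDC and ALDH1A1) summed to 19.5 to 1647 CPM, so the share of dopamine neuron RNA differed widely between punches.

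Levels are given as CPM, and between genes as CPM per kilobase of the median RefSeq transcript of the gene, which is approximate because the listed Ensembl transcript may have another length. On this scale the glucose transporter of the barrier, SLC2A1, had the highest median of the members, at 129 CPM per kilobase. EPAS1, a hypoxia-inducible transcription factor abundant in endothelium, followed at 57.6, and the membrane protein ITM2A at 35.3. The lipid transporter MFSD2A, the smooth muscle protein TAGLN and the tight junction protein CLDN5 lay close together, at 26.9, 23.5 and 22.6, and the ranges of their levels over the animals overlapped. ESAM, an adhesion molecule of endothelial junctions, reached 20.7 CPM per kilobase, and CD34, a surface sialomucin, reached 15.9.

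Lower levels were found for the receptors. The VEGF receptors FLT1 and KDR had medians of 4.43 and 2.32 CPM per kilobase, and the angiopoietin receptor TEK and its partner TIE1 had medians of 3.47 and 2.67. Among mural members, the contractile protein ACTA2 had 15.4 CPM per kilobase, the Notch receptor NOTCH3 had 6.45, the pericyte potassium channel subunit KCNJ8 had 4.35, PDGFRB (the receptor through which pericytes are recruited) had 2.18, the channel partner ABCC9 had 0.886 and the aminopeptidase ANPEP had 0.519. The efflux transporter ABCG2 had 8.96, the sialomucin EMCN 5.60, the junction scaffold TJP1 4.56, the adhesion molecule PECAM1 1.397 and NOSTRIN, which traffics endothelial nitric oxide synthase, 1.28. COL4A1 and LAMA4, a collagen chain and a laminin chain of the basement membrane, had 2.43 and 1.39. Endothelial transcription factors other than EPAS1 were low, with 0.930 for SOX17, 0.836 for SOX18 and 0.553 for FLI1. VWF, the clotting factor carrier stored in endothelial granules, was lowest of the members with a median above 0, at 0.150 CPM per kilobase.

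**Figure D1:**
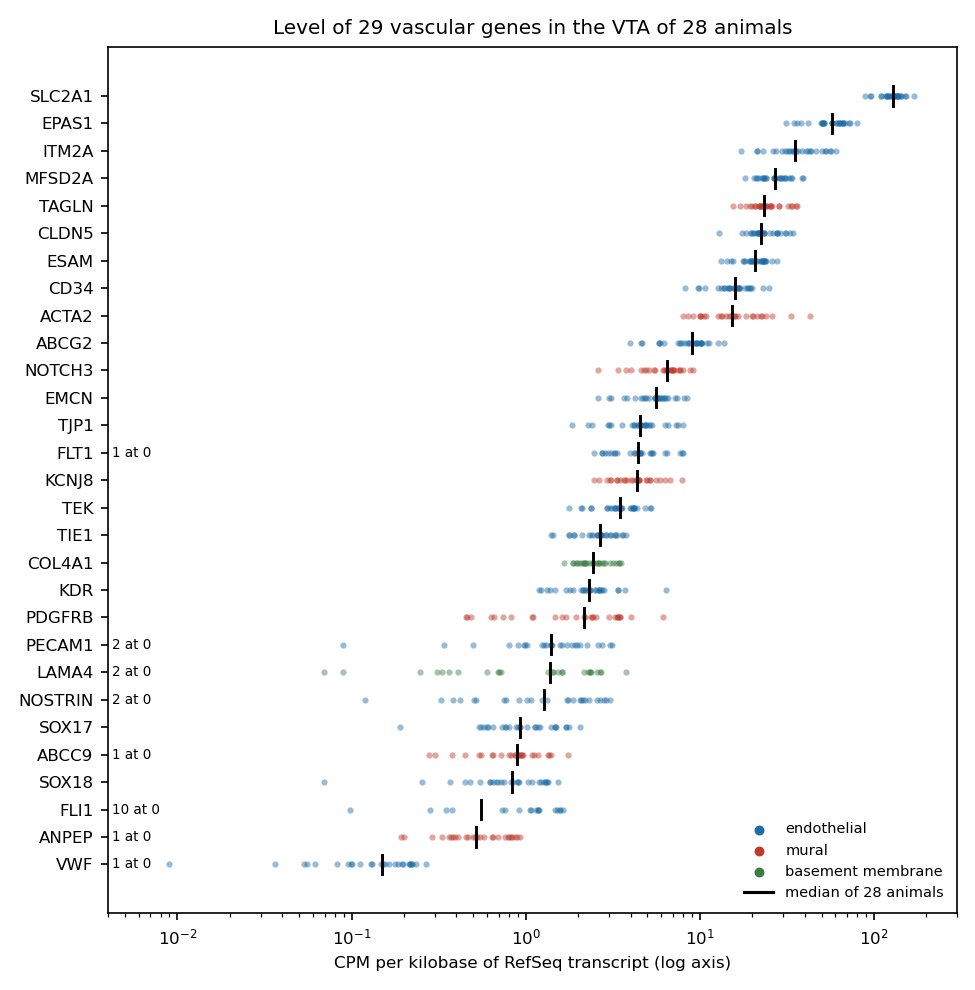
Level of the 29 members with a median above 0, as CPM per kilobase of RefSeq transcript on a log axis, 1 point per animal (28 animals) and a black line at the median; animals at 0 are counted at the left. SLC2A1 is highest, with a median of 129, and VWF lowest, with a median of 0.150.

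Several well-known vascular markers had counts of 0 in most or all libraries. RGS5, a pericyte regulator of G-protein signaling, and COL4A2, the partner chain of COL4A1, were listed at 0 in all 28 animals. The tight junction protein OCLN had 18 counts in Control 6 and 0 in the other 27 animals, and did not pass the filter. ERG, an ETS factor, was at 0 in 24 animals, the TGF-beta co-receptor ENG in 23 and the smooth muscle myosin MYH11 in 22. FLI1, a second ETS factor, was at 0 in 10 animals, 9 of them in cohort 1. PECAM1, NOSTRIN and LAMA4 were each at 0 in 2 animals, and FLT1, VWF, ABCC9 and ANPEP in 1. In the Low drinker PECAM1, NOSTRIN, VWF, ABCC9, ANPEP, FLI1, ENG, ERG and MYH11 were all at 0. By contrast, 21 members had counts above 0 in every animal, and 20 had at least 10 counts in every animal. A value of 0 here concerns the single listed transcript and is not read as absence of the gene's RNA.

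COL4A1 and COL4A2 are the clearest case of a pair with unequal listing. In the RefSeq annotation of Mmul_10 they lie head to head on chromosome 17, COL4A1 on the minus strand ending at 91748807 and COL4A2 on the plus strand starting at 91748923. COL4A1 had 223 to 579 counts per library while COL4A2 had 0 in every library. The 115 bases between the annotated starts, chr17:91748808-91748922, are shown on the plus strand because both genes begin at its edges, and 77.4% of them are G or C.
COL4A1-COL4A2 interval: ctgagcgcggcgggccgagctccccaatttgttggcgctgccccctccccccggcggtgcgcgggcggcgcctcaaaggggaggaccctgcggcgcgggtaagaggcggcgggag

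Members differed in how much they varied between animals. The median SD of log2 CPM was 0.51 over the 32 tested members and 0.62 over all tested genes. Among genes with at least 10 counts in every animal it was 0.40 for 20 members and 0.32 for all 7637 genes. SLC2A1 was the least variable member, with an SD of 0.21 and a ratio of 1.92 between its highest and lowest animals. ESAM and MFSD2A followed, with SDs of 0.26 and 0.28. PDGFRB was measured in every animal but varied most among the members with at least 10 counts in all of them, with an SD of 1.05 and a ratio of 13.6 between its highest and lowest animals (2.61 to 35.5 CPM). ACTA2 spanned a ratio of 5.32 and KDR a ratio of 5.35.

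**Figure D2:**
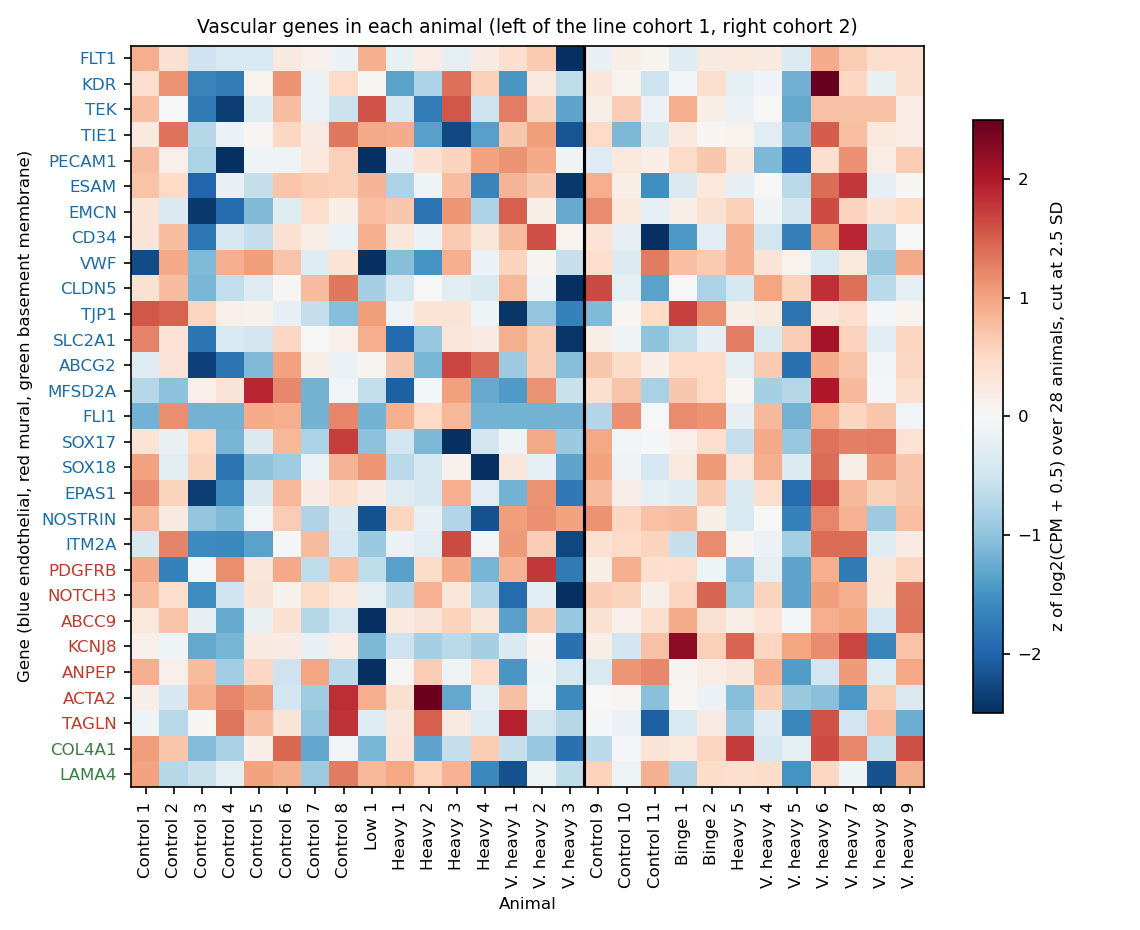
Level of 29 members in each of the 28 animals, as z of log2(CPM + 0.5) across animals (color, cut at 2.5 SD), with cohort 1 left of the line and cohort 2 right of it; animals are ordered by drinking category. Columns of mostly one color, such as Very Heavy 6 (red) and Very Heavy 3 (blue), are animals in which most endothelial members were high or low together.

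Covariation between members was measured as Pearson's r of variance-stabilized counts over the 28 animals. Correlations among endothelial members were mostly positive. Over the 231 pairs of the 22 tested endothelial members the median r was 0.266, and 19.9% of pairs had r above 0.5, whereas over all pairs of tested genes the median was 0.00228 and 1.15% of pairs exceeded 0.5. The 28 pairs of mural members had a median r of 0.0463 (0.0179 without the Low drinker), and the 176 pairs of an endothelial with a mural member had a median of 0.127. Pairs that joined COL4A1 or LAMA4 to an endothelial member had a median of 0.251. Of all 496 pairs of members, 61 had a permutation p below 0.05 after Benjamini-Hochberg adjustment over the 496 pairs, and all 61 were positive.

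Endothelial pairs had higher correlations among members with more counts. Among the 20 members with at least 10 counts in every animal, the median r of endothelial pairs was 0.446 and 39.6% exceeded 0.5, against 2.02% of all gene pairs under the same minimum. The 5 pairs of COL4A1 with a mural member had a median of -0.0387 under it, where all 16 pairs of a basement membrane with a mural member had 0.152. Within cohort 1 (16 animals) the median r of endothelial pairs was 0.176, and within cohort 2 (12 animals) it was 0.514, with medians over all gene pairs of 0.00155 and -0.000123. After cohort and drinking category were regressed out, the median over endothelial pairs was 0.284. The median over endothelial pairs was thus above that over all pairs within both cohorts and with the group means removed, and whether the cohorts differ in it was not tested. Mean z scores of the endothelial members had a correlation of -0.135 with the number of tested genes at 0, of -0.032 with total counts and of 0.235 with the mitochondrial share over all animals, but of 0.624 with total counts and 0.647 with the mitochondrial share within cohort 2. Their correlation with the mean z of fibroblast and meningeal markers was 0.417 over all animals (0.272 in cohort 1 and 0.703 in cohort 2), with ependyma and choroid plexus markers 0.315 (-0.223 and 0.849) and with dopamine neuron markers -0.251 (-0.625 and 0.310). With the 2 most extreme animals for the endothelial score left out these were 0.287, 0.0676 and -0.156. For oligodendrocyte markers it was 0.298 (0.585 and 0.267) and for astrocyte markers 0.295 (-0.0408 and 0.440), or 0.0641 and 0.260 without those 2 animals. The part of these library measures and other cells in the covariation was not tested.

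**Figure D3:**
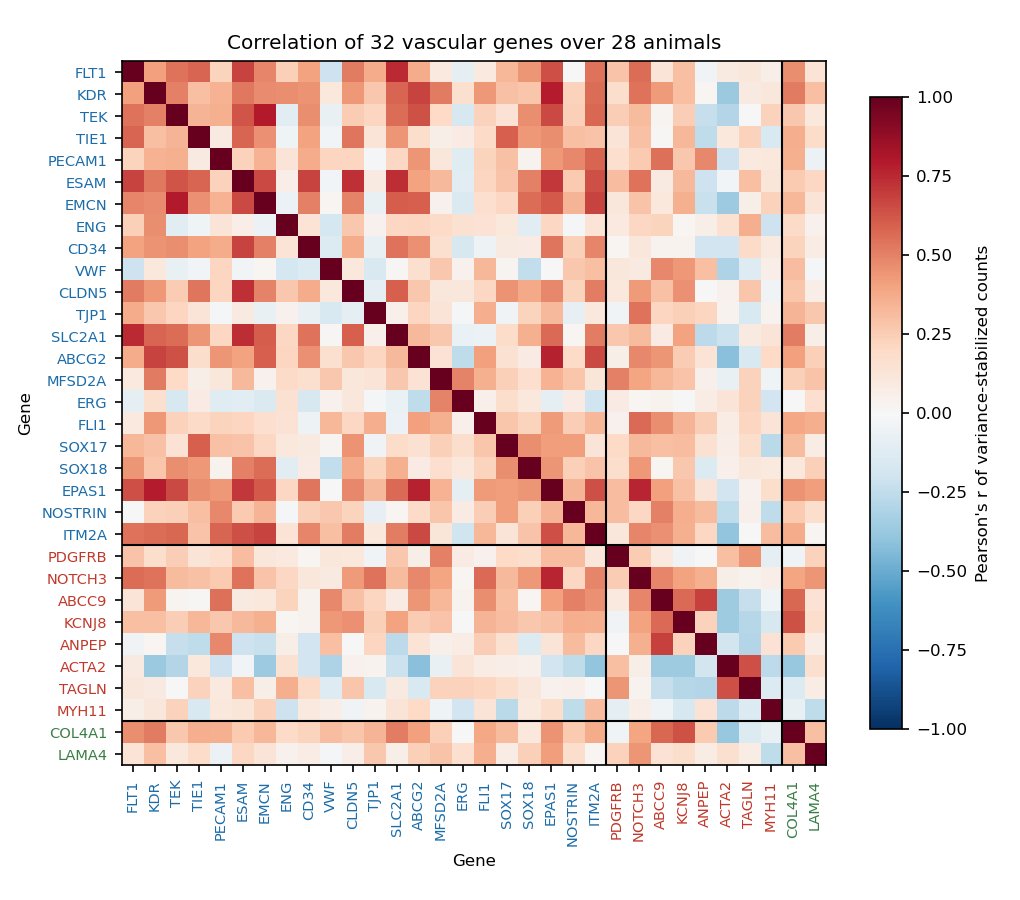
Pearson's r between the 32 tested members over 28 animals (variance-stabilized counts; red positive, blue negative), with black lines between endothelial, mural and basement membrane members. The endothelial block is mostly red (median r 0.266), while the mural block is mixed (median r 0.0463), with ACTA2 and TAGLN set apart from ABCC9 and KCNJ8.

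The highest correlation among endothelial members was between TEK and EMCN, with r = 0.792 and Spearman's rho = 0.684 (permutation p = 1e-05 and 7e-05, adjusted p for r = 0.000709). It was 0.861 in cohort 1 and 0.474 in cohort 2, and 0.762 once the 2 animals with the most extreme TEK values were left out. KDR and EPAS1 followed, with r = 0.783 and rho = 0.814 (permutation p = 1e-05 for both, adjusted p for r = 0.000709), and with 0.804 and 0.766 in the 2 cohorts and 0.779 with the 2 most extreme animals for KDR left out. ABCG2 and EPAS1 had r = 0.772 and rho = 0.697 (permutation p = 1e-05 and 6e-05, adjusted p for r = 0.000709), and r was 0.659 with the 2 most extreme animals for ABCG2 left out. A permutation p of 1e-05 is the smallest that the 100000 permutations can give. The members most tied to the other endothelial members were ESAM, ITM2A, EMCN and EPAS1, with median r of 0.504, 0.490, 0.475 and 0.468 with the endothelial members. At the other end stood TJP1, VWF and ERG, with medians of 0.0936, 0.0174 and -0.00965. The lowest endothelial pair was ABCG2 with ERG, whose r is not given because ERG was at 0 in 24 of the 28 animals. It was followed by VWF with SOX18 (r = -0.249, rho = -0.244) and FLT1 with VWF (r = -0.207, rho = -0.205), with adjusted permutation p for r of 0.431 and 0.497. Without the Low drinker these were -0.142 and -0.0653, and with the 2 most extreme animals for VWF left out -0.0295 and 0.113. With the 2 most extreme animals for the other gene left out they were -0.277 and -0.449, and within cohorts 1 and 2 they were -0.442 and -0.370 for VWF with SOX18 and -0.252 and -0.339 for FLT1 with VWF.

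The bases upstream of the RefSeq starts of the genes in the closest 2 pairs, 250 for each gene, are shown because these genes moved together. They are read 5′ to 3′ toward the gene from Mmul_10, and capitals mark AGGAAG, a core bound by ETS factors, and AACAAT, a core bound by SOX factors, on either strand (CTTCCT and ATTGTT on the other).
TEK, chr15:56644904-56645153, minus strand: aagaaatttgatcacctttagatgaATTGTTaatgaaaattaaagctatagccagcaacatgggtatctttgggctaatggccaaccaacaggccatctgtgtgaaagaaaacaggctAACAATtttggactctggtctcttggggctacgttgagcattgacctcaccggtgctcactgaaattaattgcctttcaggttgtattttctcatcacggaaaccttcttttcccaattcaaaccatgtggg
EMCN, chr5:98880759-98881008, minus strand: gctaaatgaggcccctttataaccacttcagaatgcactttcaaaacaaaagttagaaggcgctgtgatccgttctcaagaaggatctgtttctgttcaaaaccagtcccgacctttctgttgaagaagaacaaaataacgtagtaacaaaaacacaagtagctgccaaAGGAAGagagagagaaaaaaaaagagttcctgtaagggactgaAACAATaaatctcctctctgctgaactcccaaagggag
KDR, chr5:78510322-78510571, plus strand: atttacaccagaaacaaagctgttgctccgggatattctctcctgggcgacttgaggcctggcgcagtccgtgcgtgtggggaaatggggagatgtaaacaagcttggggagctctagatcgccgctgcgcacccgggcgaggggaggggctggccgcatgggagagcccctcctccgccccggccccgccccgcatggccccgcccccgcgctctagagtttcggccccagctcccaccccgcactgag
EPAS1, chr13:62508013-62508262, minus strand: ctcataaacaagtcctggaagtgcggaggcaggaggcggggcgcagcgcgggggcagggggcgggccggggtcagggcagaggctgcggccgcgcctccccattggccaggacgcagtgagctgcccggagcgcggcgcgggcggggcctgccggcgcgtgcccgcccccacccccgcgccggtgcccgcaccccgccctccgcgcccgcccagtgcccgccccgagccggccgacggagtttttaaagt

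The pairs differed in base composition upstream of their starts, with 41.2% and 40.8% G or C for TEK and EMCN and 67.2% and 78.4% for KDR and EPAS1. TEK held AACAAT at 2 places, EMCN held each motif once, and KDR and EPAS1 held neither in these windows. Over the 32 tested members, 8 windows (25.0%) held AGGAAG and 5 (15.6%) held AACAAT, against 25.5% and 5.80% of 13268 windows of all tested genes with a RefSeq start on a chromosome. These matches describe the letters in the windows and are not evidence of binding.

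Mural members held pairs that varied together and pairs that did not. ABCC9 and KCNJ8 are partner subunits of a potassium channel of pericytes and lie near each other on chromosome 11 in Mmul_10 (23178935 to 23318424 and 23145429 to 23155316, both on the minus strand). They had r = 0.570 and rho = 0.599 (permutation p = 0.00161 and 0.00102, adjusted p for r = 0.0210), with 0.421 in cohort 1, 0.618 in cohort 2 and 0.621 with the 2 most extreme animals for ABCC9 left out. ACTA2 and TAGLN, both of the contractile apparatus, had r = 0.647 and rho = 0.593 (permutation p = 9e-05 and 0.00111, adjusted p for r = 0.00319), with 0.746 in cohort 1, 0.294 in cohort 2 and 0.508 with the 2 most extreme animals for ACTA2 left out. ACTA2 is close in sequence to other actins, so its counts may share reads with them. Correlations of ACTA2 or TAGLN with pericyte members were lowest, at -0.359 for ACTA2 with KCNJ8, -0.356 for ACTA2 with ABCC9 and -0.292 for TAGLN with ANPEP, with rho of -0.367, -0.455 and -0.419 and adjusted permutation p for r of 0.217, 0.225 and 0.342. For ACTA2 with KCNJ8 the direction was not shared, with 0.0476 in cohort 1 and -0.592 in cohort 2, while ACTA2 with ABCC9 had -0.207 and -0.369 and TAGLN with ANPEP -0.189 and -0.316. Without the Low drinker TAGLN with ANPEP had -0.452. With the 2 most extreme animals for TAGLN left out it had -0.168, and with those for ANPEP left out -0.349. The highest mural r, 0.680 between ABCC9 and ANPEP (rho = 0.355, permutation p = 0.00071 and 0.0652, adjusted p for r = 0.0135), rested on few animals. It was 0.402 without the Low drinker, in which both were at 0, and 0.291 with the 2 most extreme animals left out.

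Of the mural members, NOTCH3 had the highest median r with endothelial members. It was 0.357, above the 0.302 of KCNJ8 and 0.258 of ABCC9, and its r with EPAS1 was 0.759 (rho = 0.626, permutation p = 1e-05 and 0.0004, adjusted p for r = 0.000709), with 0.727 in cohort 1, 0.813 in cohort 2 and 0.700 with the 2 most extreme animals for EPAS1 left out. NOTCH3 and FLT1 had r = 0.558 (rho = 0.348, permutation p = 0.00235 and 0.0704, adjusted p for r = 0.0271), which was 0.246 with the 2 most extreme animals for FLT1 left out and so rested on those animals. The pair of NOTCH3 with FLI1 also ranked among the highest, but FLI1 splits into animals at 0 and animals above 0, so its r is not given. The lowest endothelial and mural pairs all held ACTA2, with r of -0.420 with ABCG2, -0.393 with ITM2A and -0.371 with KDR, rho of -0.436, -0.522 and -0.366 and adjusted permutation p for r of 0.125, 0.162 and 0.209. With ABCG2 the value was -0.520 in cohort 1 but 0.159 in cohort 2, with ITM2A -0.305 and -0.457, and with KDR -0.426 and -0.234. COL4A1, chosen after its values were seen, had r = 0.633 with KCNJ8 and 0.577 with ABCC9 (rho = 0.668 and 0.581, permutation p for r = 0.00028 and 0.0009, permutation p for rho = 0.00017 and 0.00151, adjusted p for r = 0.00661 and 0.0149). With the 2 most extreme animals for the mural member left out these were 0.660 and 0.616.

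Among genes outside the list, those most like the mean z score of the endothelial members over the 28 animals were FN1 (r = 0.853), PLXDC1 (0.796), ROBO4 (0.792), ABCB4 (0.789), RIPOR3 (0.776), ADGRA2 (0.769), ACER2 (0.766), TNFSF10 (0.755), COL14A1 (0.750) and LRRC32 (0.740). FN1 encodes fibronectin, ROBO4 a guidance receptor of endothelial cells and ADGRA2 a receptor needed for brain vessel growth. ABCB4 is a close paralog of ABCB1, so reads of both genes may be hard to separate. CDH5, the cadherin of endothelial junctions, had r of only 0.0810 and was at 0 in 10 animals. Genes most like the mean z score of the mural members were COL6A2 (0.755), NFIB (0.755), BGN (0.724), MYOF (0.722) and TEDC2 (0.714), of which COL6A2 and BGN encode matrix proteins. These rankings describe likeness across animals and carry no test.

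Drinkers were then compared with controls. No member differed by edgeR's quasi-likelihood test at an adjusted p below 0.05, nor did any of the 13769 genes (0% called). At an unadjusted p below 0.05 stood 2 of the 32 tested members (ENG and ERG, both at 0 in most animals) and 4.58% of all genes. With cohort as a covariate 972 genes rather than 630 had an unadjusted p below 0.05, and still 2 members. DESeq2's Wald test called 11 genes, none a member. Of the tested members 18 were higher in drinkers and 14 lower, and the median log2 fold change was 0.02, beside 0.00 over all genes. The SE of a member's log2 fold change had a median of 0.20, or 0.17 over the 29 members that were not at 0 in most animals.

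ERG had counts in 3 of 11 controls (14, 28 and 6 in Control 3, Control 5 and Control 9) and in 1 of 17 drinkers (9 in Very Heavy 6). ENG had counts in 1 control (31 in Control 6) and in 4 drinkers (155 in Heavy 2, 92 in Heavy 4, 20 in Very Heavy 4 and 187 in Very Heavy 6). MYH11 had counts in 3 controls (20, 162 and 39 in Control 2, Control 7 and Control 10) and in 3 drinkers (118 in Heavy 3, 97 in Heavy 5 and 146 in Very Heavy 8). These genes were read in few libraries of either group, and no fold change is given. The adjusted p was 1.00 for ERG and ENG.

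CD34 had the next lowest p. Its level was 22.6 to 51.7 CPM in the 11 controls (median 40.9) and 27.5 to 69.0 CPM in the 17 drinkers (median 45.9). The groups overlapped widely, and the log2 fold change was 0.21 (SE 0.13, unadjusted p = 0.130, adjusted p = 1.00 with edgeR). It was 0.26 (SE 0.12) within cohort 1 and 0.25 (SE 0.28) within cohort 2, with adjusted p of 0.493 and 1.00.

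The most abundant member of each role had similar medians in both groups. SLC2A1 was 287 to 448 CPM in controls (median 375) and 263 to 506 CPM in drinkers (median 391), a log2 fold change of 0.05 with an SE of 0.08. This was the most precise estimate of any member, and 2 SE on either side span -0.11 to 0.21. EPAS1 was 155 to 359 CPM in controls (median 284) and 172 to 394 CPM in drinkers (median 284), a log2 fold change of 0.02 with an SE of 0.13. ESAM was 25.7 to 43.1 CPM in controls (median 40.05) and 23.8 to 50.2 CPM in drinkers (median 36.5), a log2 fold change of 0.01 with an SE of 0.10. The ranges of the groups overlapped for each of these genes. CLDN5 was 41.4 to 77.9 CPM in controls (median 55.3) and 30.3 to 80.7 CPM in drinkers (median 52.4), a log2 fold change of -0.06 with an SE of 0.11. ITM2A was 34.6 to 87.0 CPM in controls (median 57.9) and 28.0 to 99.0 CPM in drinkers (median 57.1), a log2 fold change of 0.14 with an SE of 0.17. TAGLN was 20.5 to 46.7 CPM in controls (median 31.6) and 22.4 to 47.8 CPM in drinkers (median 29.6), a log2 fold change of -0.01 with an SE of 0.12. FLT1, with 1 drinker at 0, was 12.6 to 40.2 CPM in controls (median 20.3) and 0 to 40.8 CPM in drinkers (median 23.3). Its log2 fold change was 0.20 with a wide SE of 0.35.

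**Figure D4:**
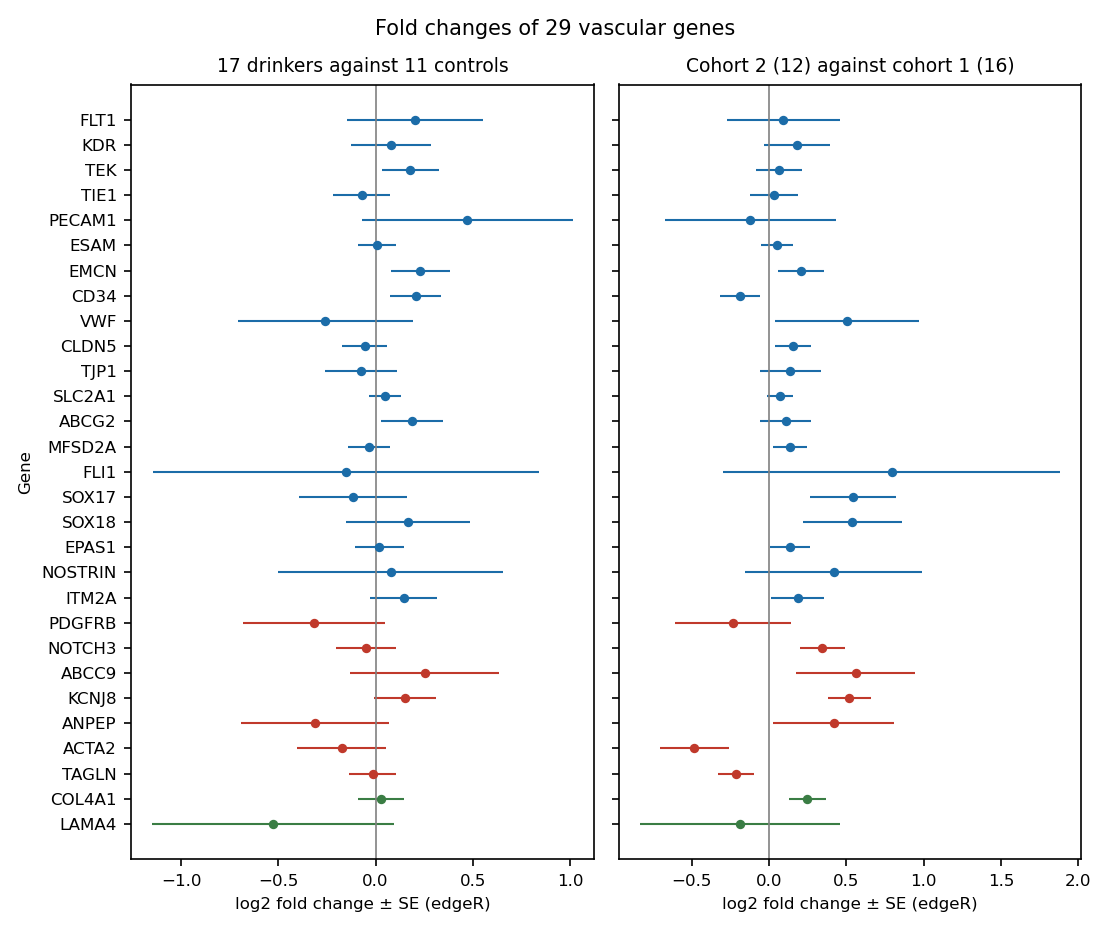
edgeR log2 fold change with 1 SE for 29 members, left for 17 drinkers against 11 controls and right for cohort 2 against cohort 1 (blue endothelial, red mural, green basement membrane). On the left the members scatter around 0, and on the right most lie above 0, with ACTA2 at -0.48 and KCNJ8 at 0.52; no member passed an adjusted p of 0.05 with edgeR in either comparison.

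Directions of the members were counted within each cohort. In cohort 1 (8 drinkers, 8 controls) 9 of 31 members were higher in drinkers and 22 lower, beside 6460 of 13086 genes higher. The median log2 fold change was -0.09, beside -0.005 over all genes. In cohort 2 (9 drinkers, 3 controls) 21 of 30 members were higher and 9 lower, beside 6593 of 12785 genes higher. The median was 0.12, beside 0.01. Members covaried, so these are not counts of independent genes. In neither cohort did a member pass at an unadjusted p below 0.05, although 10.2% and 3.76% of all genes did, and 5 genes (0.0382%) and 0 genes (0%) were called after adjustment. In cohort 1 the drinkers also had more tested genes at 0 than the controls (median 2588.5 against 1993.5), and summed neuron markers differed in opposite directions in the cohorts, with medians of 2159 CPM in controls and 3779 CPM in drinkers of cohort 1 and of 3576 and 2093 CPM in cohort 2. For the neuron markers NEFL and SNAP25 the interaction was -1.50 and -0.84 in log2 (unadjusted p = 0.00239 and 0.0158, adjusted p = 0.279 and 0.371 with edgeR). The part of these in the members' directions was not tested.

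The difference of the drinking effect between cohorts was tested directly as an interaction. It was called for 2 of 13769 genes (0.0145%), neither of them a member, and 9.64% of genes but 0 of 32 members had an unadjusted p below 0.05. These were 1327 genes, and 874 without Control 10, while the 2 calls became 0 without the Low drinker, Control 9 or Control 10 and 4 without Control 11. Without Control 9, 2 members had an unadjusted p below 0.05, and without Control 11, 1 did. The members with the lowest p were COL4A1, KCNJ8 and ERG, the last at 0 in most animals. For COL4A1 the difference was 0.46 in log2 (SE 0.23, adjusted p = 0.544 with edgeR), and the level was 12.3 to 21.6 CPM in cohort 1 controls, 10.9 to 18.3 CPM in cohort 1 drinkers, 13.97, 15.87 and 17.11 CPM in cohort 2 controls and 14.3 to 22.9 CPM in cohort 2 drinkers. For KCNJ8 it was 0.54 (SE 0.28, adjusted p = 0.557). Both were lower in drinkers in cohort 1 (log2 fold change -0.21 each) and higher in drinkers in cohort 2 (0.25 and 0.33), and none of these values passed the test.

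Drinking categories were compared with controls with cohort as a covariate. No gene was called in any of these contrasts with edgeR (0% called), whereas DESeq2's Wald test called 131 genes for Low or Binge, 79 for Heavy and 60 for Very Heavy drinkers and 78 for Very Heavy against Heavy, none of them a member. Among the 3 Low or Binge drinkers 0 of 32 members, among the 5 Heavy drinkers 3, and among the 9 Very Heavy drinkers 1 had an unadjusted p below 0.05, beside 4.77%, 7.07% and 6.86% of all genes. The value for Low or Binge rested on the Low drinker, since 657 genes had an unadjusted p below 0.05 with that library and 259 without it. Very Heavy against Heavy drinkers gave 1 member, beside 6.23% of genes. That count was 0 without Heavy 3 or Heavy 5 and 2 without Heavy 1, the count for Low or Binge was 1 without Heavy 3, and the count for Very Heavy against controls was 2 without Heavy 5 and 0 without cohort as a covariate. The median log2 fold change of the members was -0.02, -0.02 and 0.00 against controls, where that over all genes was -0.06, -0.02 and -0.03.

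SOX17, an endothelial transcription factor that takes part in arterial identity, shared the lowest p for Heavy drinkers with ERG. Its level was 1.83, 1.32, 0.453, 1.85 and 1.75 CPM in the 5 Heavy drinkers, 1.30 to 4.95 CPM in controls (median 2.24) and 1.44 to 4.24 CPM in the 9 Very Heavy drinkers (median 3.53). All 5 Heavy drinkers lay below the control median, but the Heavy range overlapped both other ranges. The log2 fold change was -0.85 against controls (SE 0.36, unadjusted p = 0.0276, adjusted p = 0.652 with edgeR) and 0.90 for Very Heavy against Heavy drinkers (SE 0.40, unadjusted p = 0.0318, adjusted p = 0.766). SOX17 was a gene of few counts, with 10 to 105 per library.

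TJP1, the scaffold that links tight junction proteins to actin, was lowest in p for Very Heavy drinkers. It was 12.9 to 35.5 CPM in Very Heavy drinkers (median 30.4), 20.8 to 52.7 CPM in controls (median 31.7), 29.3, 34.5, 34.5, 29.4 and 32.2 CPM in Heavy drinkers, and 44.2, 55.7 and 46.0 CPM in the Low and the 2 Binge drinkers. The low values belonged to the 3 Very Heavy drinkers of cohort 1 (12.9, 21.6 and 16.9 CPM) and to Very Heavy 5 of cohort 2 (16.1 CPM), while the other 5 lay at 30.4 CPM or above. The log2 fold change was -0.49 (SE 0.21, unadjusted p = 0.0289, adjusted p = 0.673 with edgeR) against controls and -0.43 (SE 0.25, adjusted p = 0.879) against Heavy drinkers. CD34 was 0.32 higher in log2 in Very Heavy drinkers than in controls (SE 0.16, adjusted p = 0.745), at 27.5 to 69.0 CPM.

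NOTCH3, a receptor that maintains mural cells, was 21.0 to 70.6 CPM in Very Heavy drinkers (median 52.1) and 30.4 to 60.2 CPM in controls (median 52.7). Its log2 fold change was -0.27 (SE 0.19, adjusted p = 0.868 with edgeR), and -0.08 without cohort as a covariate. TIE1 was 13.4, 7.33, 5.76, 7.31 and 10.8 CPM in Heavy drinkers and 5.89 to 15.5 CPM in Very Heavy drinkers (median 11.2), a log2 difference of 0.35 for Very Heavy against Heavy (SE 0.23, adjusted p = 0.915). ANPEP, an aminopeptidase of pericytes, was 0, 1.82 and 1.96 CPM in the Low and the 2 Binge drinkers and 1.04 to 3.32 CPM in controls. The value of 0 was that of the Low drinker, and the log2 fold change of -1.34 (SE 0.77, adjusted p = 0.952) became -0.54 without that animal. MYH11 and ERG, at 0 in all 3 Low and Binge drinkers, had the other low p in this contrast and are given by their counts above.

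**Figure D5:**
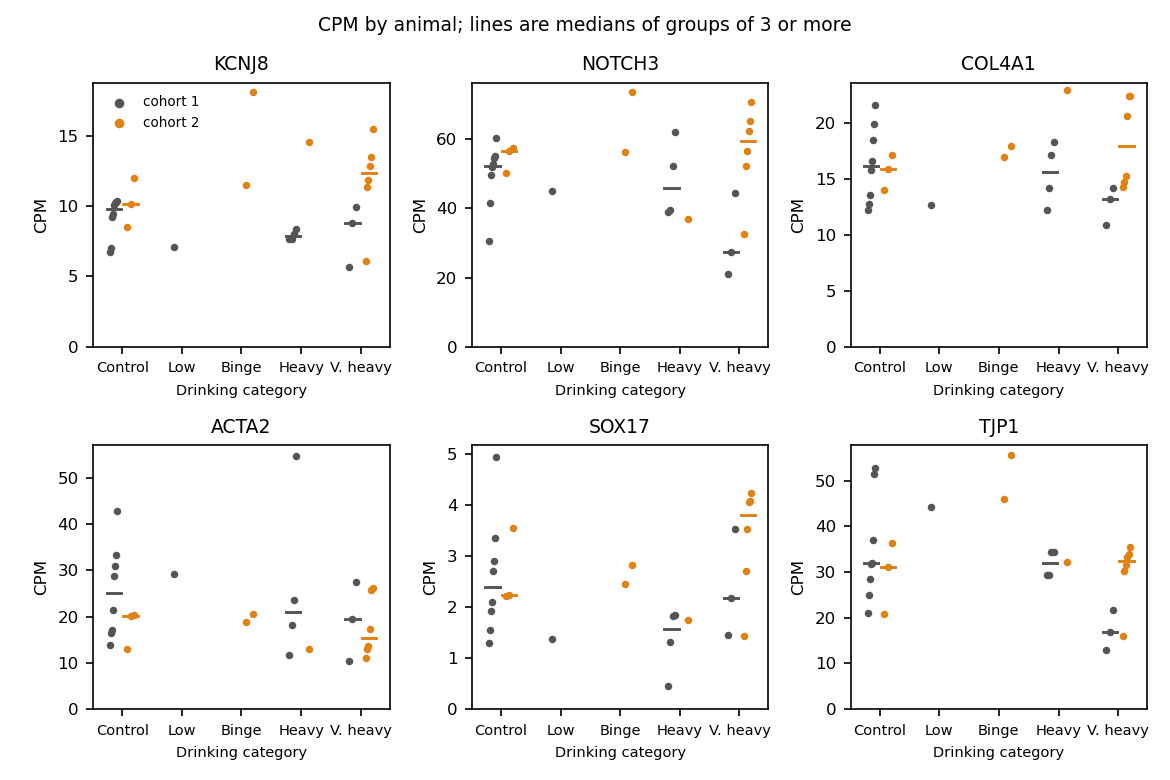
CPM of KCNJ8, NOTCH3, COL4A1, ACTA2, SOX17 and TJP1 in each animal by drinking category, gray for cohort 1 and orange for cohort 2, with lines at medians of groups of 3 or more. KCNJ8 of cohort 2 drinkers lies mostly above the cohort 1 range of 5.70 to 10.3 CPM, and the Heavy drinkers lie at 1.85 CPM or below for SOX17.

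Cohort 2 was compared with cohort 1 with drinking as a covariate. In this comparison 25 of the 32 tested members were higher in cohort 2 and 7 lower, with a median log2 fold change of 0.15, where 52.8% of all genes were higher with a median of 0.02. Of the endothelial members 19 of 22 were higher (median 0.14), and of the mural members 5 of 8 (median 0.35). Taken apart, 25 of 32 members were higher in cohort 2 among drinkers (median 0.22) and 18 of 32 among controls (median 0.11), and of the endothelial members 19 of 22 among drinkers and 12 of 22 among controls. The difference between drinkers and controls in this is the interaction given above, which called no member. With edgeR no member passed an adjusted p of 0.05, as against 6 of 13769 genes (0.0436%), while DESeq2's Wald test called 1 member, KCNJ8. With edgeR 4 members had an unadjusted p below 0.05, as against 9.80% of all genes. The labels give neither tissue collection nor sequencing run, so cohort and any difference of handling that goes with it cannot be told apart.

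KCNJ8, which forms a potassium channel with ABCC9 in pericytes, had the lowest p of the members. Its level was 6.75 to 10.3 CPM in cohort 1 controls (median 9.77), 5.70 to 9.92 CPM in cohort 1 drinkers (median 7.86), 10.1, 8.50 and 12.0 CPM in the 3 controls of cohort 2 and 6.08 to 18.1 CPM in cohort 2 drinkers (median 12.8). Among drinkers, 8 of 9 in cohort 2 were above the highest of cohort 1, whereas the controls of the cohorts overlapped. The log2 fold change was 0.52 (SE 0.14, unadjusted p = 0.0009, adjusted p = 0.157 with edgeR). DESeq2's Wald test gave 0.50 with an adjusted p of 0.0352, and over all other fits the adjusted p lay between 0.0682 and 0.195.

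NOTCH3 was 21.0 to 61.9 CPM in cohort 1 (median 47.2) and 32.5 to 73.5 CPM in cohort 2 (median 56.5), a log2 fold change of 0.35 (SE 0.15, unadjusted p = 0.0249, adjusted p = 0.398 with edgeR). COL4A1 was 10.9 to 21.6 CPM and 13.97 to 22.9 CPM, with medians of 14.2 and 17.0 and a log2 fold change of 0.25 (SE 0.12, unadjusted p = 0.0439, adjusted p = 0.487). ACTA2 went the other way, from 10.3 to 54.9 CPM in cohort 1 (median 22.5) to 11.0 to 26.1 CPM in cohort 2 (median 18.1), with a log2 fold change of -0.48 (SE 0.22, unadjusted p = 0.0386, adjusted p = 0.464). TAGLN, also contractile, had a log2 fold change of -0.21 (SE 0.12, adjusted p = 0.582). The members that were lower in cohort 2 were thus ACTA2, TAGLN, PDGFRB (-0.23), CD34 (-0.19), LAMA4 (-0.19), PECAM1 (-0.12) and ENG, none past the test.

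Astrocyte, fibroblast and oligodendrocyte marker lists had unlike medians in the cohorts. Neuron markers had medians of 2345 CPM in cohort 1 and 2130 CPM in cohort 2, and dopamine neuron markers 224 and 181.2 CPM. Microglia markers had 383.4 and 382.9 CPM and ependyma and choroid plexus markers 48.2 and 47.0 CPM. No astrocyte, fibroblast or oligodendrocyte marker passed the test (lowest adjusted p = 0.157 with edgeR, for COL3A1, whose log2 fold change was -7.80). The summed level of 4 astrocyte markers was 486 to 786 CPM in cohort 1 (median 651) and 538 to 1248 CPM in cohort 2 (median 749), that of 7 fibroblast and meningeal markers was 25.4 to 87.4 CPM (median 46.0) and 36.2 to 73.5 CPM (median 54.6), and that of 5 oligodendrocyte markers had medians of 16940 and 14390 CPM. In cohort 2, 3 of 4 astrocyte markers were higher (AQP4, SLC1A3 and GJA1, with unadjusted p of 0.0196, 0.00576 and 0.0318 and adjusted p of 0.358, 0.227 and 0.433 with edgeR) and GFAP was lower (adjusted p = 0.758). Their log2 fold changes were of unlike size, at 5.05 for AQP4, 0.47 for SLC1A3, 0.22 for GJA1 and -0.78 for GFAP. Of the fibroblast and meningeal markers 5 of 7 were higher and COL1A2 and COL3A1 lower, and of the oligodendrocyte markers 4 of 5 were lower and MOG higher. Tested genes at 0 had medians of 2160.5 and 1543. Mean z scores of the mural members had correlations of 0.461 with those of the astrocyte markers and of -0.461 with the number of tested genes at 0 over all animals. Within cohorts 1 and 2 these were 0.202 and 0.822 for the astrocyte markers and -0.434 and -0.361 for the genes at 0. With the 2 most extreme animals for the mural score left out they were 0.660 and -0.191. The mural score had a correlation of 0.451 with the blood gene HBA (0.618 in cohort 1 and 0.125 in cohort 2). The part of these in the higher vascular values of cohort 2 was not tested.

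A further 75 genes of vessels (ligands, caveolar and adhesion proteins, junction proteins, transporters, Notch and transcription factors, mural and matrix genes) were listed to give the pathway around the members, and 67 of them were tested. None was called in any comparison with edgeR, and the other fits are not given for them. Against controls 3 of 67 had an unadjusted p below 0.05 in drinkers (ANGPT2 and JAM2 higher, SLCO1A2 lower), beside 4.58% of all genes, and between cohorts 8 did, beside 9.80%. JAM2 was at 0 in 18 animals and SLCO1A2 in 25. ANGPT2, the angiopoietin that opposes TEK signaling, was 0.950 to 5.67 CPM in controls (median 3.07) and 1.77 to 10.2 CPM in drinkers (median 4.25), with a log2 fold change of 0.65 (SE 0.27, adjusted p = 1.00 with edgeR). In Heavy drinkers alone it was 2.04 to 10.2 CPM, with a log2 fold change of 1.10 (SE 0.34, adjusted p = 0.505).

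SLC3A2, the heavy chain of amino acid transporters found at the barrier and in other cells, was singled out after its values were seen. Its level was 65.3 to 110.3 CPM in the 5 Heavy drinkers, 34.0 to 64.2 CPM in the 9 Very Heavy drinkers and 42.1 to 72.5 CPM in controls. The log2 difference for Very Heavy against Heavy was -0.65 (SE 0.13, unadjusted p = 4.98e-05 with edgeR). That was the lowest p of any gene in that contrast, yet its adjusted p was 0.587. CSPG4, made by pericytes and by oligodendrocyte precursors, was 17.0 to 36.7 CPM in cohort 1 (median 30.1) and 27.7 to 49.2 CPM in cohort 2 (median 37.3), with a log2 fold change of 0.45 (SE 0.10, adjusted p = 0.105). Its r with the mean z score of the mural members was 0.681 and with that of the endothelial members 0.540.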

How the data were processed

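VTA RNA of 28 macaques, 1 library each, was sequenced with a Nugen Universal Plus mRNA kit. The authors trimmed reads with Trim Galore 0.6.7, quantified them with Salmon 1.9.0 against Mmul_10 and deposited their estimated counts as they were, not normalized, for each animal. The annotation release and transcript lengths are not given in the sources used here. Estimated counts were rounded to whole numbers, and 1 entry without a symbol (1.16e-05% of counts) was left out. Genes that reached 5 counts in 3 or more animals entered edgeR 4.0.16 (TMM, quasi-likelihood F test, Benjamini-Hochberg adjustment over all 13769 genes, threshold 0.05), and an SE is the log2 fold change divided by the square root of F. CPM values use TMM library sizes over the tested genes, mitochondrial transcripts included. Drinkers were compared with controls without a covariate, drinking categories with cohort, cohorts with drinking, and their difference by an interaction. A sequence or level per length used the RefSeq annotation of Mmul_10.

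Correlations used variance-stabilized counts (DESeq2 1.42.0, blind to group) over 28 animals, with 100000 two-sided permutations for single pairs. Scores are mean z values of a list. Alternatives were limma 3.58.1 (voom), the Wald test of DESeq2, other size factors and count filters, other covariates, single cohorts and left-out animals. The edgeR fits were also run on simulated counts in which 200 genes changed by 1 in log2. For drinkers against controls 150 of the 200 were recovered (75%), beside 63 other calls, 58 of them in genes with zeros. Between cohorts 154 were recovered (77%), beside 17 other calls, 16 of them in genes with zeros. Leaving out the Low drinker was added after seeing the data. R was 4.3.3, and Python 3.11.15 ran the rest.

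Named members are those with the 3 lowest unadjusted p in each comparison, the highest level in each role, members at 0 in any animal, and the 3 highest and 3 lowest pairs in each class. The members and the lists of markers and other vascular genes were chosen with earlier results of these data known. Each library is its own animal, and no pair of libraries looked repeated, with identical counts in at most 1.78% of the transcripts counted in either library. The precision of each fold change is given by its SE, which holds both counting error and the spread between animals.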

Additional observations from a re-analysis of the deposited data

Results flagged for a closer look

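In the Heavy and the Very Heavy drinkers, the groups of 4 to 10 animals, the highest and lowest animals of 16 named genes were compared with the rest of their group. Of 32 groups tested, 4 had an animal set apart by Dixon's gap at the 95% level, and chance sets apart about 1 in 20 groups. All 4 were among the 5 Heavy drinkers. ACTA2 was 54.88 CPM in Heavy 2 and 11.7 to 23.6 CPM in the others. EPAS1 was 336.1 CPM and ITM2A 99.05 CPM in Heavy 3, where the others had 245 to 255 CPM and 53.4 to 59.9 CPM. KCNJ8 was 14.57 CPM in Heavy 5, the only Heavy drinker of cohort 2, and 7.69 to 8.40 CPM in the 4 of cohort 1.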

How the results depend on the processing

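The study yoked each calorie-matched control to a drinker, but the labels do not name these pairs, so no paired analysis was possible. Of 137 refits of the fold changes of named members, 136 kept their direction and their side of the threshold. The exception was KCNJ8 between cohorts, at 0.50 with an adjusted p of 0.0352 by DESeq2's Wald test, which makes it the 1 member called under any alternative, and in the other 67 of 68 refits the count of members called was 0. Genes called moved more. DESeq2's Wald test called 11 genes for drinkers, 131 for Low or Binge, 79 for Heavy, 60 for Very Heavy, 78 for Very Heavy against Heavy, 121 between cohorts and 129 for the interaction, where edgeR called 0, 0, 0, 0, 0, 6 and 2. Drinkers against controls gave 5 genes in cohort 1 alone. Between cohorts, drinkers alone gave 104 genes, limma-voom 23, DESeq2 size factors 3 and a minimum of 10 counts in every animal 10. Leaving out 1 animal gave 0 to 3 genes for Low or Binge (2 without Binge 1, 3 without Binge 2), 0 to 1 for Heavy (1 without Heavy 4), 0 to 8 between cohorts (0 without Control 11) and 0 to 4 for the interaction (4 without Control 11, and 0 without Control 9, Control 10 or Low 1). The causes were not tested. The median r of endothelial pairs was 0.514 in cohort 2 and 0.446 for members with at least 10 counts in every animal, and that of mural pairs 0.203 in cohort 1 and 0.157 under the same minimum. Leaving out the Low drinker was chosen after seeing the data for the comparisons of drinkers, cohorts and their interaction and for the correlations.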
